A study of Mus musculus with 22 samples.

Results

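Transcripts of 10 serotonin receptor genes (Htr1a, Htr1b, Htr1d, Htr2a, Htr2c, Htr4, Htr5a, Htr5b, Htr6 and Htr7) were described in the hypothalamus of mice carrying Lewis lung carcinoma, a transplantable mouse lung tumour, and of tumour-free controls. The genes were listed by name, and each was read from the probe set that the platform annotation gives to its symbol. They are 10 of the 18820 genes measured, and each had exactly 1 probe set, so that no choice between probe sets was needed. The title of the series concerns food intake and serotonin signalling in cachectic, that is wasting, tumour-bearing mice.

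All 22 animals were male C57BL/6 mice, housed singly with free access to food, and each gave 1 array. Tumour-bearing mice had received Lewis lung carcinoma cells, taken from growing tumours, into the muscle of a hind leg at 6 weeks of age, under anaesthesia, and were killed 10 days later (5 mice), 14 days later (7 mice) or 17 days later (6 mice). The 4 controls were killed on day 14, and whether they received a sham injection was not stated in the sources used here. The 3 comparisons with control therefore share the same 4 mice, and for days 10 and 17 they also contain a difference in day. The model is a single tumour line grown in muscle, and every animal, control or not, was given ketamine and xylazine at dissection.

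Serotonin acts in the brain through receptors that, apart from the ion channel of the Htr3 genes, couple to G proteins. Receptors of the Htr1 group, and by most accounts Htr5a, couple to Gi/o proteins and dampen cyclic AMP and firing. Those of the Htr2 group couple to Gq proteins, which activate phospholipase C, and Htr4, Htr6 and Htr7 couple to Gs proteins, which raise cyclic AMP. In the hypothalamus the pathway is best known for satiety: Htr2c excites Pomc neurons and Htr1b restrains Agrp neurons of the arcuate nucleus.

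The deposited values are RMA values on the log2 scale, called levels here, and a difference of 1 is a factor of 2. Array medians ran from 5.27 to 5.34 and correlations between arrays from 0.980 to 0.995. Of 12 hypothalamic marker genes, 11 had a mean level above the background measure defined next, among them Hcrt, Avp, Oxt, Trh and Ghrh, while Crh, at 3.63, did not. The labels describe separate mice but name no batch, and p-values for group differences set them against the spread between mice within a group. Because tissue pieces were measured in bulk, fewer cells of a type and less RNA per cell cannot be told apart.

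A total of 4 arrays were highest in 11 marker genes of the neighbouring thalamus: tumour day 14 replicate 2 (mean level 7.05), tumour day 17 replicate 1 (6.80), control replicate 1 (6.99) and control replicate 3 (7.47). The next array, tumour day 10 replicate 5, lay at 6.60, and all others lay between 6.11 and 6.30. By group the list ran from 6.16 to 6.60 on tumour day 10, from 6.11 to 7.05 on tumour day 14, from 6.11 to 6.80 on tumour day 17 and from 6.18 to 7.47 in controls. Of the 11 markers, 10 had a mean above the background measure, and Gbx2, at 3.83, did not.

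Whether each receptor gene was detected was judged against 1182 probe sets of olfactory and vomeronasal receptors, genes of the nose that brain tissue is expected to transcribe little or not at all. Their 95th percentile, 3.87, served as the background measure, and 13790 of the 18820 genes had a mean above it. All 10 receptor genes did, and 9 of them were above it on all 22 arrays. Htr5b was the one near background, with a mean level of 4.09, which is 0.23 above the measure, and with 19 of 22 arrays above. It was also the only one of the 10 below the 99th percentile of the nasal probe sets, 4.54. Htr6 and Htr1d came next, 1.03 and 1.07 above the measure. Levels of different probe sets depend on their probes, so the receptors are not ranked against each other by level.

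The receptor genes of the mouse that were not among the 10 were read in the same way. Htr1f (mean level 4.68) and Htr3a (4.69) were above background on 22 of 22 arrays. Htr2b (3.09) was above it on 0 and Htr3b (3.47) on 1 array. None of these 4 was called in any comparison with control, and the smallest p each time was that of Htr3a, which differed by -0.22 ± 0.12 on day 10, -0.17 ± 0.11 on day 14 and -0.18 ± 0.11 on day 17 (log2, SE, limma adjusted p = 0.518, 0.607 and 0.443).

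The promoters of Htr2a, Htr1b and Htr2c are shown because the levels of these 3 genes correlated across mice, positively or negatively, as described further on. Each sequence covers 250 bases before and 50 after the annotated start in RefSeq (GRCm38.p6), written 5′ to 3′ on the gene's own strand. Capitals mark matches to the GC box core (GGGCGG) or the CCAAT box core (CCAAT) on either strand.
Htr2a, chr14:74640624-74640923, plus strand: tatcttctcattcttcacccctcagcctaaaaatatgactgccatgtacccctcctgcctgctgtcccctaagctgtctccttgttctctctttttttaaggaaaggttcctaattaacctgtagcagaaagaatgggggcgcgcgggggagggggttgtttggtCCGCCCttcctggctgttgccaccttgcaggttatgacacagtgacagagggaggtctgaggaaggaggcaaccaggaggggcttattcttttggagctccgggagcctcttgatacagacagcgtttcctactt
Htr1b, chr9:81633783-81634082, minus strand: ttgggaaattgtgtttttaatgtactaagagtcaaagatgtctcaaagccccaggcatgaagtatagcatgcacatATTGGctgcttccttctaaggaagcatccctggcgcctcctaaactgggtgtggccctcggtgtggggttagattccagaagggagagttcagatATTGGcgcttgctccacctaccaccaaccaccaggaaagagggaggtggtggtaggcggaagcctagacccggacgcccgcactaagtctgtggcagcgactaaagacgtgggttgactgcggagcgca
Htr2c, chrX:146962263-146962562, plus strand: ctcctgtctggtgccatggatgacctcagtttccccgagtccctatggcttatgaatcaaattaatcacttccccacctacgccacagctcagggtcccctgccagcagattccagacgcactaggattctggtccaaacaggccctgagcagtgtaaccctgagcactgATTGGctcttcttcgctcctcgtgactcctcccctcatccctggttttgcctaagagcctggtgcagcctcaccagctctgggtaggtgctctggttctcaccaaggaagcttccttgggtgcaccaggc

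Htr2a held 1 GC box core, read on the opposite strand, and 6 CpG dinucleotides. Htr1b held 2 CCAAT box cores on the opposite strand and 11 CpG, and Htr2c held 1 CCAAT box core on the opposite strand and 5 CpG. Of 32851 RefSeq promoters of the same length, 35.7% hold a GC box core and 37.4% a CCAAT box core, so such matches are common, and the median CpG count was 7. Neither the TATA box core (TATAAA, 13.6% of promoters) nor the Nr5a1 motif (AAGGTCA, 4.72%) was found in these windows. A match is a stretch of letters and was not tested as a binding site. Of the 10 receptor genes, 8 have an entry in the promoter table.

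No receptor gene was called changed in tumour-bearing mice on any day, in a linear model fitted with limma to all 18820 genes and called at a Benjamini-Hochberg adjusted p below 0.05. On day 10 it called 0 of the 10, where 0.106% of all genes were called. On day 14 it called 0 of 10, against 0.218% of all genes, and on day 17 it called 0 of 10, against 1.12% of all genes. At an unadjusted p below 0.05 there was 1 receptor gene on day 10 (10.7% of all genes), 0 on day 14 (10.5%) and 3 on day 17 (16.6%). Those were Htr7 on day 10, and Htr7, Htr5a and Htr5b on day 17, all with a lower mean in tumour-bearing mice. No receptor gene had tumour-bearing mice and controls that did not overlap, where 4.45%, 1.84% and 4.96% of all genes did on days 10, 14 and 17.

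A lower mean in tumour-bearing mice was found for 7 of 10 receptor genes on day 10, 6 on day 14 and 7 on day 17, where 49.7%, 52.0% and 53.7% of all genes had one. Their median difference was -0.07, -0.04 and -0.09 (log2), against 0.0006, -0.0046 and -0.0111 over all genes. The intervals give what these numbers of mice could resolve. Over the 10 genes, the 95% intervals of the difference reached from -0.46 to 0.33 on day 10, from -0.38 to 0.38 on day 14 and from -0.54 to 0.32 on day 17, and a typical interval extended 0.22, 0.21 and 0.22 to either side (median over the 10 genes). A p that misses the threshold does not show that levels were equal.

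**Figure D1:**
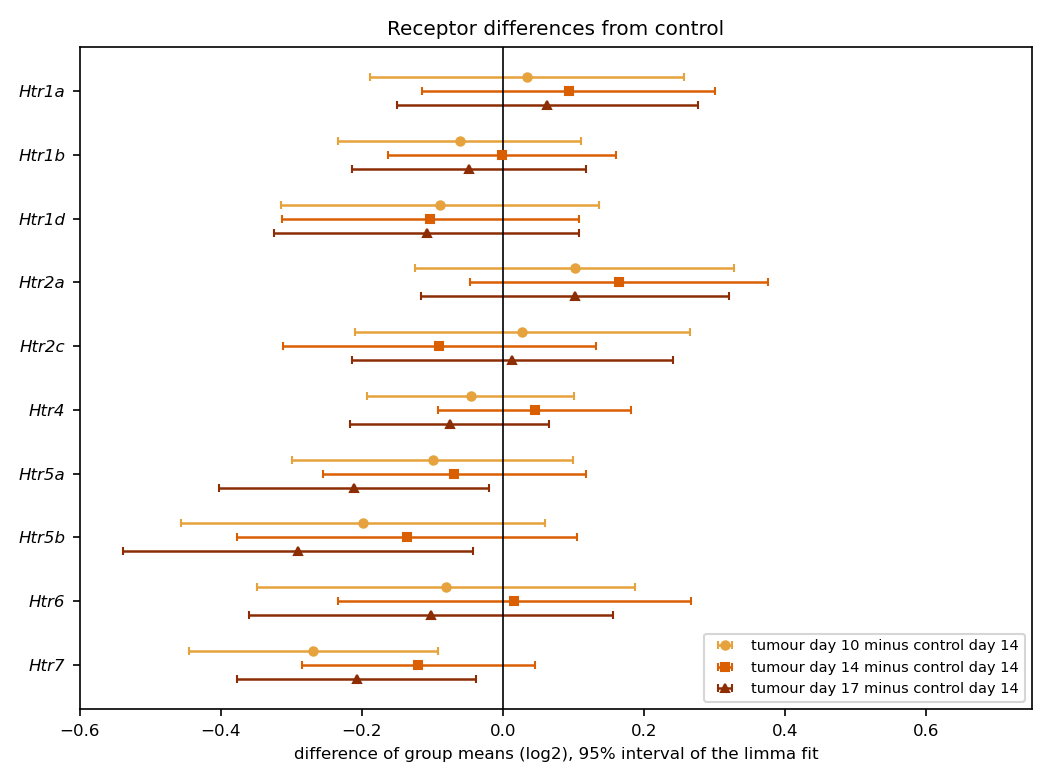
Difference in level between each tumour-bearing group and the day 14 controls for the 10 receptor genes, on the log2 scale, as point and 95% interval of the limma fit (5, 7 and 6 tumour-bearing mice, 4 controls). Intervals lie wholly below 0 for Htr7 on day 10 and for Htr5a, Htr5b and Htr7 on day 17, before any adjustment for the number of genes, and include 0 elsewhere.

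Among the Gs-coupled receptors, Htr7, known in the hypothalamus for the circadian clock and body temperature and also transcribed in the thalamus, had the smallest p of the 10 genes on day 10. Its levels were 6.42, 6.61, 6.68, 6.50 and 6.70 on tumour day 10. On tumour day 14 they ran from 6.65 to 6.92 with a median of 6.73, and on tumour day 17 from 6.51 to 6.78 with a median of 6.66. The controls had 7.08, 6.67, 6.97 and 6.68. Thus control replicates 1 and 3 stood above every tumour-bearing mouse, while the other two controls lay among them.

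Htr7 averaged 6.58 ± 0.12 on tumour day 10, 6.73 ± 0.09 on day 14, 6.64 ± 0.11 on day 17 and 6.85 ± 0.20 in controls (SD, n = 5, 7, 6 and 4). The difference from control was -0.27 ± 0.09 on day 10 (SE, log2, 95% interval -0.45 to -0.09, limma adjusted p = 0.266). It was -0.12 ± 0.08 on day 14 (adjusted p = 0.624) and -0.21 ± 0.08 on day 17 (interval -0.38 to -0.04, adjusted p = 0.208). Across the 4 groups the moderated F test of limma gave an adjusted p of 0.335 for Htr7. It called 0 of the 10 receptor genes, with 0.335% of all genes called, and 1 of them, Htr7, had an unadjusted p below 0.05, with 11.8% of all genes.

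Both high controls are among the 4 arrays highest in thalamus markers. Htr7 was 6.92 in tumour day 14 replicate 2, 6.65 in tumour day 17 replicate 1, 7.08 in control replicate 1 and 6.97 in control replicate 3, so 3 of the 4 arrays held the 3 highest Htr7 levels of the series. The thalamus list averaged 6.26 ± 0.19, 6.30 ± 0.34 and 6.25 ± 0.27 on tumour days 10, 14 and 17 and 6.72 ± 0.62 in controls, and 11 of 11 markers had a lower mean in each tumour-bearing group, with 0 called.

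Without these 4 arrays, Htr7 differed from the 2 remaining controls by -0.10 on day 10, 0.02 on day 14 and -0.03 on day 17 (log2, limma adjusted p = 0.780, 0.991 and 0.925). With the mean of the thalamus markers as a covariate in the same fit, it differed by -0.16 on day 10 and -0.10 on day 17 (adjusted p = 0.460 and 0.518). Leaving out control replicate 1 alone gave -0.19 on day 10, -0.04 on day 14 and -0.13 on day 17. In the order of sample numbers, the groups follow each other in the first 9 arrays and again in the last 13. These are called the earlier and the later run here, and could be batches, though no label says so. Htr7 differed by -0.15, -0.08 and -0.18 on days 10, 14 and 17 in the later run, and by -0.56, -0.30 and -0.39 in the earlier run, where control replicate 1 is the only control.

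Over the 22 arrays Htr7 and the mean of the thalamus markers had a Pearson r of 0.70 (permutation p = 0.00072, 0.0360 adjusted over 50 relations of receptor genes with 5 regional lists). Spearman rho was 0.36 (adjusted permutation p = 0.304). After subtracting group means r was 0.64 (adjusted 0.0355), and without the 2 arrays farthest from the median it was 0.53 (adjusted 0.263). It was 0.69 in the earlier and 0.71 in the later run (adjusted permutation p = 0.309 and 0.240). Of the 4 arrays highest in these markers, only control replicate 3 lies in the later run. Over the 18 arrays other than the 4 highest in these markers r was 0.12 (rho 0.08, permutation p = 0.617, 0.685 adjusted over the 10 receptor genes). Leaving these 4 out also narrows the range of the marker mean. The lower r alone therefore does not show how far the relation rests on them.

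**Figure D2:**
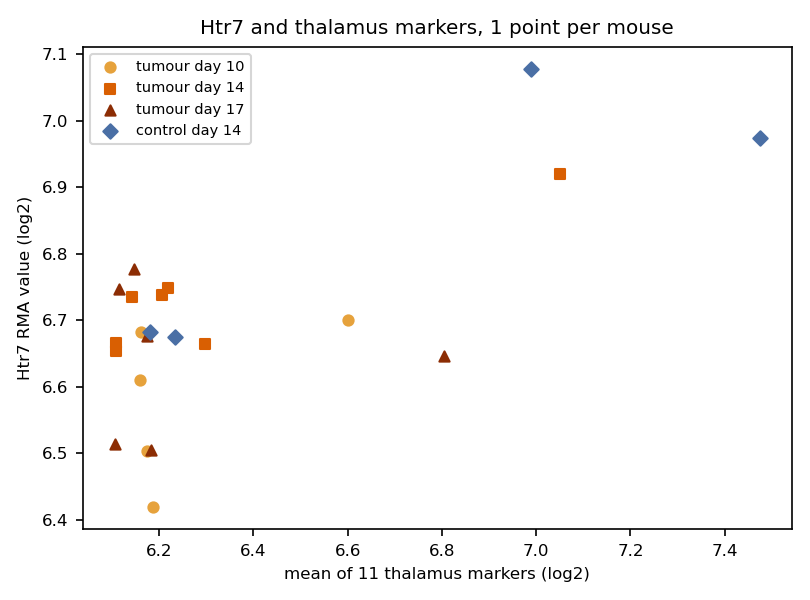
Htr7 level against the mean level of 11 thalamus markers, both log2, with 1 point per mouse and the 4 groups by colour and shape. Of the 4 arrays with a marker mean of 6.80 or more, control replicates 1 and 3 and tumour day 14 replicate 2 hold the 3 highest Htr7 levels, and tumour day 17 replicate 1 lies among the rest.

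Htr4 and Htr6, the other Gs-coupled receptors, differed from control by at most 0.10 in size on any day. Htr4, a receptor studied in the brain for feeding control in the nucleus accumbens, averaged 6.72 ± 0.13, 6.81 ± 0.08 and 6.69 ± 0.10 on tumour days 10, 14 and 17 and 6.76 ± 0.10 in controls. Its largest difference from control was -0.08 ± 0.07, on day 17 (SE, log2, limma adjusted p = 0.607). Htr6, a target of weight-lowering antagonists in rodents, averaged 4.85 ± 0.22, 4.95 ± 0.26 and 4.83 ± 0.15 on tumour days 10, 14 and 17 and 4.94 ± 0.14 in controls, with all 22 arrays between 4.55 and 5.27. Its largest difference was -0.10 ± 0.12, on day 17 (adjusted p = 0.722).

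Of 14 measured genes of the Gs pathway, which carry the signal of these receptors to cyclic AMP, 0 were called on any day, while 4, 5 and 4 had an unadjusted p below 0.05 on days 10, 14 and 17, where 10.7%, 10.5% and 16.6% of all genes did. Closest to the threshold was Gnal, the olfactory-type Gs alpha subunit, with a difference of -0.26 ± 0.07 on day 17 (limma adjusted p = 0.0578). Adcy8, a calcium-stimulated adenylyl cyclase, differed by -0.31 ± 0.08 on day 14 (adjusted p = 0.110). Adcy5, the main cyclase of the striatum, had the smallest p on day 10 at -0.15 ± 0.05 (adjusted p = 0.303).

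Htr5a and Htr5b, receptors whose signalling is the least studied of the group, had a lower mean in tumour-bearing mice on all 3 days and an unadjusted p below 0.05 on day 17. Htr5a levels were 6.45, 6.06, 5.76, 6.03 and 6.08 on tumour day 10. They ran from 5.97 to 6.27 with a median of 6.09 on day 14 and from 5.86 to 6.04 with a median of 5.98 on day 17. The controls had 6.23, 6.31, 6.16 and 6.00. On day 17, control replicate 4 lay inside the range of the tumour-bearing mice and the other 3 controls lay above it.

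Htr5a averaged 6.08 ± 0.25 on tumour day 10, 6.11 ± 0.11 on day 14, 5.96 ± 0.08 on day 17 and 6.18 ± 0.13 in controls. It differed from control by -0.10 ± 0.10, -0.07 ± 0.09 and -0.21 ± 0.09 on days 10, 14 and 17 (SE, log2), with an interval of -0.40 to -0.02 on day 17 (limma adjusted p = 0.259). Weighting arrays by their quality gave the smallest adjusted p of any setting, 0.0974, still above the threshold.

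Htr5b, the near relative of Htr5a that in humans is no longer a working gene, was measured close to background. Its levels were 4.20, 4.04, 4.04, 4.14 and 3.90 on tumour day 10. They ran from 3.86 to 4.58 with a median of 4.07 on day 14 and from 3.59 to 4.22 with a median of 4.08 on day 17. Controls had 4.35, 4.30, 4.08 and 4.30. The arrays below the background measure were 1 of tumour day 14 and 2 of tumour day 17, and none was a control.

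Htr5b averaged 4.06 ± 0.11 on tumour day 10, 4.12 ± 0.22 on day 14, 3.97 ± 0.25 on day 17 and 4.26 ± 0.12 in controls. The differences from control were -0.20 ± 0.12, -0.14 ± 0.12 and -0.29 ± 0.12 (SE, log2, limma adjusted p = 0.590, 0.716 and 0.230), with an interval of -0.54 to -0.04 on day 17. With the 4 arrays high in thalamus markers left out, Htr5b differed by -0.24 and -0.28 on days 10 and 17 and Htr5a by -0.08 and -0.20, none of them past the threshold (limma adjusted p = 0.603 for Htr5b and 0.639 for Htr5a on day 17). Within the later and the earlier run of arrays, the day 17 difference was -0.26 and -0.38 for Htr5b, and -0.21 and -0.25 for Htr5a.

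The Gi/o-coupled Htr1 genes, which include the autoreceptors of serotonin neurons in the brainstem but are read here in target tissue, showed small differences of either sign. Htr1a averaged 6.22 ± 0.04, 6.28 ± 0.23 and 6.25 ± 0.17 on tumour days 10, 14 and 17 and 6.19 ± 0.11 in controls. Its spread was narrow on tumour day 10, from 6.17 to 6.28, and wide on tumour day 14, from 5.93 to 6.54. The largest difference was 0.09 ± 0.10, on day 14 (SE, log2, limma adjusted p = 0.777).

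Htr1b levels were 7.91, 8.00, 8.08, 7.91 and 7.95 on tumour day 10, ran from 7.85 to 8.26 (median 8.08) on tumour day 14 and from 7.80 to 8.09 (median 8.01) on tumour day 17, and were 8.07, 7.99, 7.83 and 8.24 in controls. The controls spanned nearly the whole range of the tumour-bearing mice. Its differences from control were -0.06 ± 0.08, -0.00 ± 0.08 and -0.05 ± 0.08, and the 95% interval on day 14 was -0.16 to 0.16.

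Htr1d averaged 4.93 ± 0.14, 4.91 ± 0.24 and 4.91 ± 0.13 on tumour days 10, 14 and 17 and 5.02 ± 0.09 in controls, with differences of -0.09 ± 0.11, -0.10 ± 0.10 and -0.11 ± 0.10 (SE, log2, limma adjusted p = 0.798, 0.758 and 0.635). Of 12 genes of Gi/o signalling, 0 were called on any day and 0 had an unadjusted p below 0.05. The smallest p was that of Gnaz, a Gi/o-class alpha subunit, on day 10 (-0.09 ± 0.06) and of Kcnj6, a potassium channel opened by Gi/o proteins, on days 14 and 17 (-0.13 ± 0.07 each, adjusted p = 0.505 and 0.351).

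The Gq-coupled pair differed less between groups than between mice. Htr2c, the receptor through which serotonin and appetite-lowering drugs act on Pomc neurons, had levels of 9.04, 8.78, 8.38, 8.83 and 8.82 on tumour day 10. It ran from 8.32 to 8.90 with a median of 8.64 on tumour day 14 and from 8.65 to 8.96 with a median of 8.72 on tumour day 17. Controls had 8.91, 8.73, 8.80 and 8.53. All groups overlapped, and the highest and second-lowest arrays of the series both belonged to tumour day 10.

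Htr2c averaged 8.77 ± 0.24 on tumour day 10, 8.65 ± 0.19 on day 14, 8.76 ± 0.12 on day 17 and 8.74 ± 0.16 in controls. Its differences from control had intervals of -0.21 to 0.26 on day 10, -0.31 to 0.13 on day 14 and -0.21 to 0.24 on day 17. RNA editing and splicing of Htr2c transcripts, which set how active the receptor is, are not read by a gene-level value.

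Htr2a, the other Gq-coupled receptor, had levels of 8.53, 8.51, 8.69, 8.33 and 8.46 on tumour day 10. It ran from 8.16 to 8.91 with a median of 8.53 on tumour day 14 and from 8.28 to 8.66 with a median of 8.52 on tumour day 17. Controls had 8.45, 8.33, 8.29 and 8.55. Its mean was higher than the control mean on each day, by 0.10 ± 0.11, 0.16 ± 0.10 and 0.10 ± 0.11 (SE, log2, limma adjusted p = 0.768, 0.600 and 0.661), with an interval of -0.05 to 0.38 on day 14. Under other settings of the fit, apart from leaving out 1 array, the Htr2a difference ran from -0.02 to 0.16 on day 10. It ran from 0.05 to 0.20 on day 14 and from -0.02 to 0.14 on day 17. Of 10 measured genes of Gq signalling, 0 were called. Plcb4, a phospholipase C that Gq activates, had the smallest p on each day, at -0.21 ± 0.06, -0.15 ± 0.06 and -0.17 ± 0.06 (adjusted p = 0.243, 0.372 and 0.164).

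**Figure D3:**
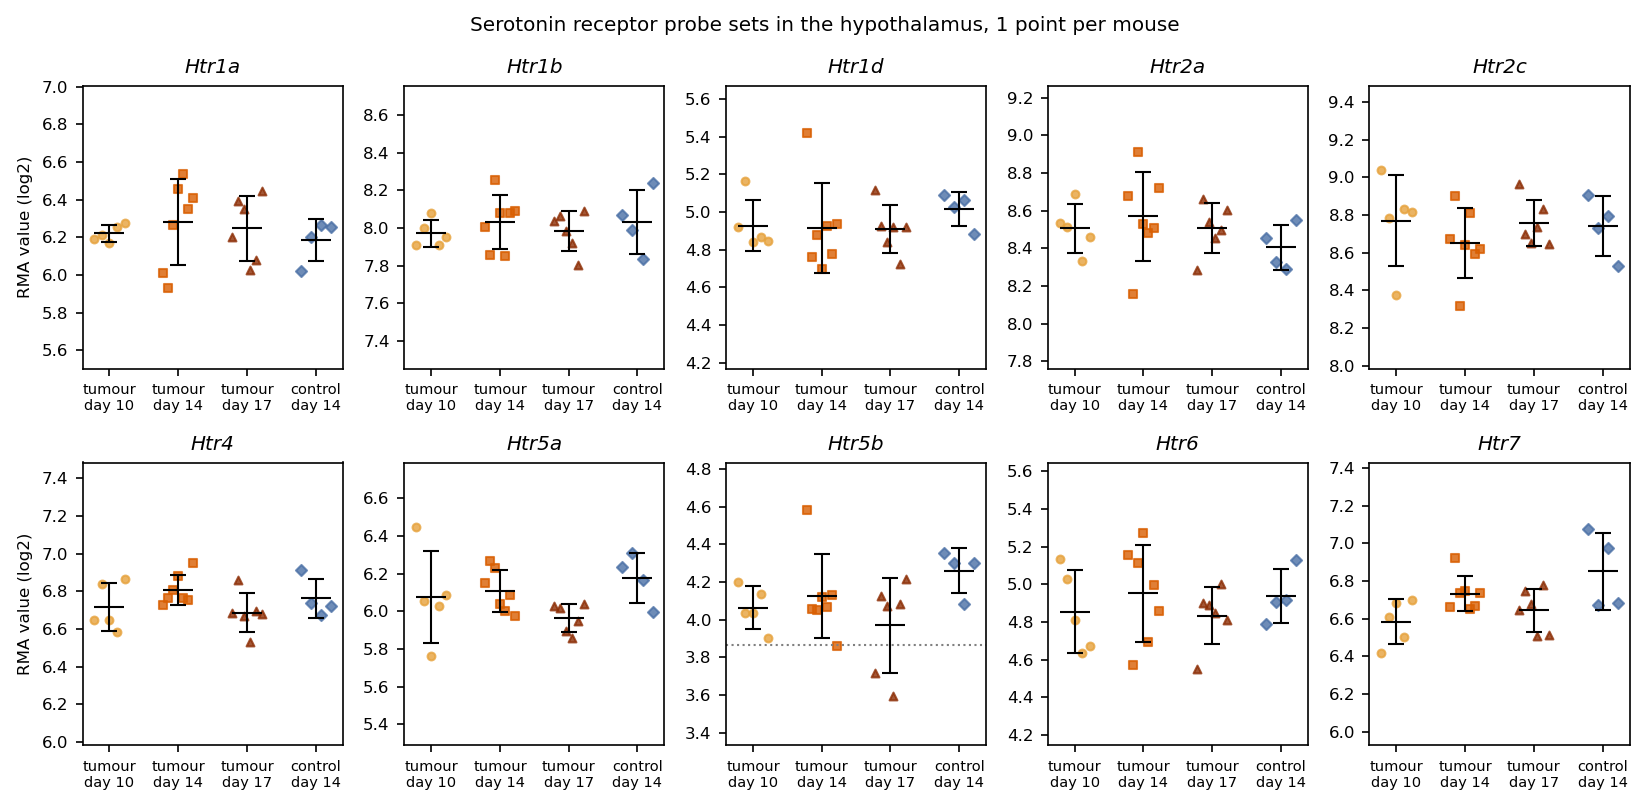
Level of each receptor gene (RMA, log2) by group, with 1 point per mouse and bars for the mean and SD (5, 7, 6 and 4 mice). Vertical axes start at different values but span the same number of log2 units, and the dotted line, in range for Htr5b alone, is the background measure of 3.87. Groups overlap for all 10 genes, and only in Htr5b do arrays (3 of 22) fall below the line.

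The days of tumour growth were also compared with each other, which leaves the controls out of the contrast. No receptor gene was called between days 14 and 10, between days 17 and 10 or between days 17 and 14, where 0.00531%, 0% and 0% of all genes were. At an unadjusted p below 0.05 there were 0 receptor genes in each, where 7.13%, 8.30% and 4.17% of all genes passed. In none of the 3 did a receptor gene have groups that did not overlap, which 0.399%, 0.792% and 0.0372% of all genes had. A lower mean on the later day was found for 2 of 10 receptor genes between days 14 and 10, 6 between days 17 and 10 and 9 between days 17 and 14, where 53.5%, 56.5% and 54.3% of all genes had one. The difference with the smallest p was that of Htr7 for day 14 against day 10, 0.15 ± 0.07 (SE, log2, limma adjusted p = 0.704). For day 17 against day 10 it was that of Htr5a, -0.11 ± 0.09 (adjusted p = 0.764), and for day 17 against day 14 that of Htr4, -0.12 ± 0.06 (adjusted p = 1.00).

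The distance between the highest and the lowest group mean exceeded the pooled SD within groups for 4 genes only. It was 2.09 SD for Htr7, 1.47 for Htr5b, 1.42 for Htr5a and 1.18 for Htr4, and between 0.49 and 0.96 SD for the other 6. Controls had the highest mean for Htr7, Htr5a and Htr5b, followed by tumour day 14 in each, and the lowest was tumour day 10 for Htr7 and tumour day 17 for Htr5a and Htr5b. Tumour day 14 had the highest mean for Htr4, and tumour day 17 the lowest. No pair of groups differed past the threshold for any receptor gene.

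Serotonin supply and the machinery around the receptors were read from gene lists. Of 10 measured genes of serotonin synthesis, transport and breakdown, 0 were called. The smallest p was that of Slc18a2, the vesicular monoamine transporter, on day 10 (0.44 ± 0.21, limma adjusted p = 0.457), of Aanat, the enzyme that turns serotonin toward melatonin, on day 14 (-0.13 ± 0.08, adjusted p = 0.596), and of Tph2, the enzyme of neuronal serotonin synthesis, on day 17 (0.19 ± 0.10, adjusted p = 0.334). Of these, Slc18a2 was above background on 22 arrays, Aanat on 7 and Tph2, at a mean level of 3.13, on 0. All 3 measured markers of the raphe, where serotonin neurons have their cell bodies, had mean levels below background (Gata3 3.41, Tph2 3.13 and Slc6a4 3.08), and 0 were called.

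Of 10 measured receptor partners and RNA-editing enzymes, 0 were called. Mpdz, a scaffold protein that binds the tail of Htr2c, came closest, at -0.21 ± 0.07 on day 14 and -0.29 ± 0.07 on day 17 (SE, log2, limma adjusted p = 0.263 and 0.0625). Adarb1, an enzyme that edits Htr2c transcripts, had the smallest p on day 10 at -0.25 ± 0.10 (adjusted p = 0.395).

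The feeding circuit downstream of these receptors did hold a call. Of its 11 measured genes, Npy, the appetite-raising neuropeptide, was called on day 17, higher by 1.27 ± 0.24 (SE, log2, limma adjusted p = 0.0120). It differed by 0.99 ± 0.24 on day 14 (adjusted p = 0.0884), and on day 10 Crh, a stress and satiety peptide measured below background, had the smallest p (-0.36 ± 0.11, adjusted p = 0.266). No other gene of that list was called. Npy stayed higher on day 17 with each control left out in turn, though not always past the threshold. Without control replicate 1, 2 or 3 the difference was 1.17, 1.24 and 1.10 (limma adjusted p = 0.0838, 0.0517 and 0.0742). Without control replicate 4 it was 1.57 (adjusted p = 0.00123). These refits also have fewer controls, so a missed threshold alone does not show that the difference rests on any single control. Without the 4 arrays high in thalamus markers, which leaves 2 controls, Npy differed by 0.95 (adjusted p = 0.366), and 0 of the 211 genes called over all arrays passed. With the mean of those markers as a covariate it differed by 0.98 (adjusted p = 0.0579), and in the later and the earlier run alone by 1.32 and 1.42 (adjusted p = 0.171 and 0.389).

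Markers of cell types give the frame for these levels. Neuronal markers had a lower mean in tumour-bearing mice for 6 of 6 genes on each day, with 0 called, and the list mean was 10.30 to 10.40 on tumour day 10, 10.31 to 10.42 on day 14, 10.29 to 10.42 on day 17 and 10.41 to 10.48 in controls. Group means of the list were 10.35, 10.35, 10.34 and 10.44. The tumour day 10 mice and the controls did not overlap in it, narrowly, with 10.402 as the highest of the former and 10.411 as the lowest control. Of single genes, 4.45% did not overlap on day 10. On day 17 the means of the ependyma, endothelium and red cell lists did not overlap between tumour-bearing mice and controls. Of single genes, 4.96% did not overlap on that day. The ependyma mean was lower than in controls (5.51 against 5.86). Endothelium (7.68 against 7.50) and red cell means (7.11 against 4.85) were higher. Htr1b, Htr1d, Htr5a, Htr5b and Htr7 also had lower means than controls on all 3 days. Over all arrays their Pearson r with the mean of the neuronal markers was 0.04, 0.03, -0.005, 0.12 and 0.40. The adjusted permutation p was 0.944, 0.944, 0.982, 0.901 and 0.200. With group means subtracted r was -0.07, -0.19, -0.39, -0.26 and 0.09. The highest r was 0.79 in the earlier run (Htr7) and 0.70 in the later run (Htr1d), with adjusted permutation p of 0.199 and 0.061. The part of neuronal content in the lower means was not tested. In the myelin list of oligodendrocytes, 5 of 7 genes were measured, again with 0 called. Of these, 4 had a higher mean on day 10 and 1 on each of days 14 and 17. Ghrh of the hypothalamus list was called higher on days 14 and 17. It differed by 0.69 ± 0.12 and 0.70 ± 0.12 (SE, log2, limma adjusted p = 0.0113 and 0.00692). Alas2 of the red cell list was called higher on the same days (2.03 ± 0.33 and 2.42 ± 0.34, adjusted p = 0.00738 and 0.00129). So was Slc4a1, the other measured gene of that list. Tmem212 of the ependyma list was called on day 17, at -0.41 ± 0.09 (adjusted p = 0.0264). No other marker gene was called against control.

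Across mice, Htr2c went with the myelin genes. Relations with the oligodendrocyte, hypothalamus and neuron lists, and those between receptor genes, were chosen after seeing the data. Their adjusted p-values do not cover that choice. Over the 22 arrays the Htr2c level and the mean of the oligodendrocyte list had a Pearson r of 0.79 (permutation p = 4e-05, 0.0012 adjusted over 30 relations) and a Spearman rho of 0.81. After subtracting group means r was 0.83, and without the 2 arrays farthest from the median it was 0.76 (adjusted permutation p = 0.0027). It was 0.80 in the 9 arrays of the earlier run of sample numbers (exact permutation p = 0.00852) and 0.79 in the 13 arrays of the later run (permutation p = 0.00129); adjusted over the 30 relations these were 0.199 and 0.0194. At the extremes, tumour day 10 replicate 1 had the highest level of both (9.04 for Htr2c and 9.25 for the myelin list) and tumour day 10 replicate 3 the lowest myelin mean, 8.56, with the second-lowest Htr2c, 8.38.

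Htr2a and Htr1b ran opposite to Htr2c. Among the 45 pairs of receptor genes, 3 passed an adjusted permutation p of 0.05, and these genes formed all 3 of them. The r was -0.71 for Htr2a and Htr2c (rho -0.73, permutation p = 0.00021, adjusted 0.0081), -0.70 for Htr1b and Htr2c (rho -0.73, adjusted 0.0081) and 0.63 for Htr1b and Htr2a (rho 0.64, adjusted 0.0237). With group means subtracted they were -0.72, -0.69 and 0.69, and another pair, Htr2a and Htr6, also passed (r = 0.59, adjusted 0.0392, against 0.54 and 0.0972 over the plain levels). In the earlier run they were -0.79, -0.75 and 0.74, and in the later run -0.71, -0.81 and 0.59.

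Tumour day 14 replicate 3 had the lowest Htr2c of the series (8.32) together with the highest Htr2a (8.91) and the highest Htr1b (8.26). The 2 arrays farthest from the median of 1 gene were then left out, that of Htr2c in its pairs and of Htr2a in the last pair. The r was then -0.55, -0.61 and 0.45, and no pair stayed past 0.05 after adjustment (adjusted permutation p = 0.163, 0.163 and 0.422). Leaving out extreme arrays also narrows the range of that gene, so the lost calls alone do not show how far the relations rest on such arrays.

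Against the myelin list, Htr2a and Htr1b each had r = -0.54, just outside the threshold (adjusted permutation p = 0.0557 for each). By Spearman rho both passed, at -0.59 for Htr2a and -0.65 for Htr1b (adjusted permutation p = 0.0467 and 0.0221), and so did r after subtracting group means, at -0.57 for each (adjusted 0.0371). Without the 2 farthest arrays r was -0.68 for Htr2a (adjusted 0.0117) and -0.56 for Htr1b (adjusted 0.0921). In the later run r was -0.81 and -0.63 (adjusted 0.0189 and 0.134), and in the earlier run -0.50 and -0.66 (adjusted 0.561 and 0.341). All 3 genes share the arrays and the same RMA scaling in these correlations, and the part of myelin content in the relations between them was not tested.

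**Figure D4:**
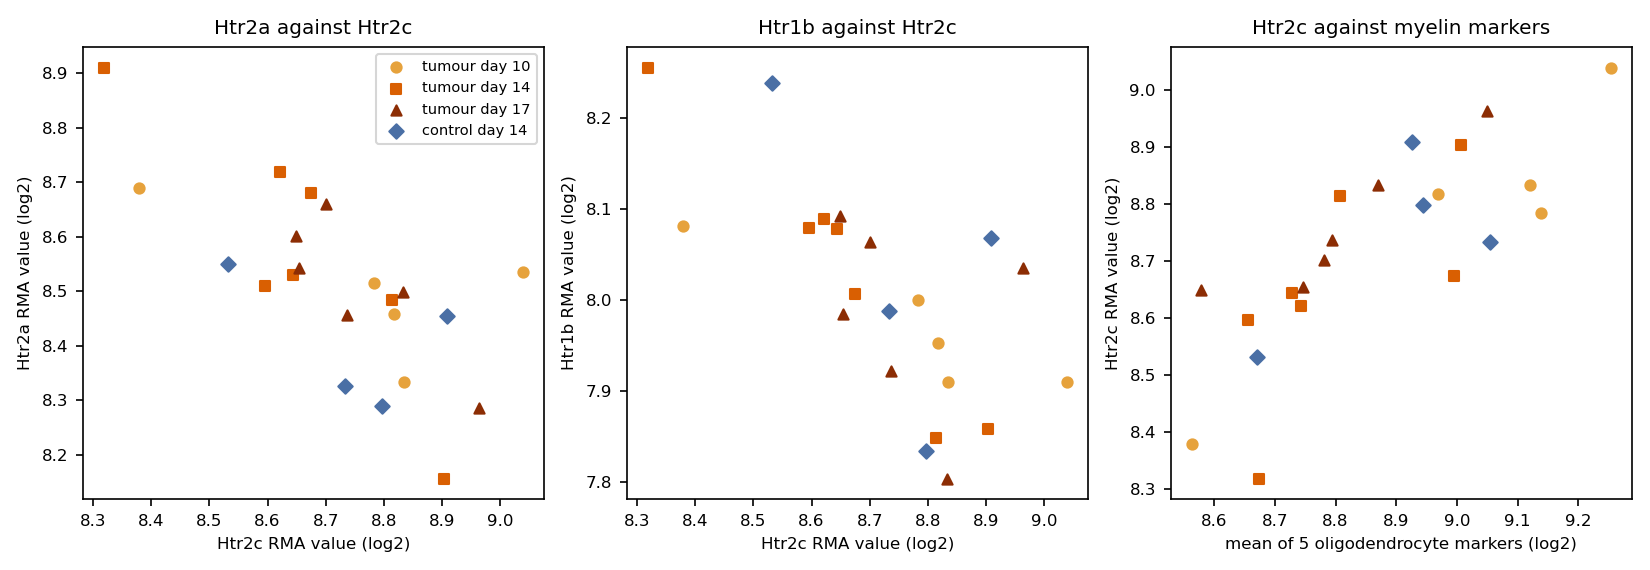
Levels (RMA, log2) of Htr2a against Htr2c, Htr1b against Htr2c, and Htr2c against the mean of 5 oligodendrocyte markers, with 1 point per mouse and the 4 groups by colour and shape. Points of all groups mix along a falling line in the left and middle panels (r = -0.71 and -0.70) and along a rising line in the right panel (r = 0.79).

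Other relations to marker lists were fewer. Htr1b went with the 12 hypothalamic markers (r = 0.63, adjusted permutation p = 0.0234), with r = 0.43 in the earlier and 0.71 in the later run, and 0.54 (adjusted 0.110) without the 2 farthest arrays. Its rho was 0.54 (adjusted 0.0639), and r after subtracting group means was 0.66 (adjusted 0.00910). Htr5a went with the oligodendrocyte list (r = 0.58, adjusted permutation p = 0.0457), with rho 0.48 (adjusted 0.113), r = 0.66 after subtracting group means (adjusted 0.00910) and r = 0.49 without the 2 farthest arrays (adjusted 0.149). Htr2c ran against the hypothalamic markers (r = -0.51, adjusted permutation p = 0.0720), and passed by rho (-0.57, adjusted 0.0467) but neither with group means subtracted (-0.49, adjusted 0.101) nor without the 2 farthest arrays (-0.50, adjusted 0.149). In the 40 relations with habenula, cortex and hippocampus, striatum and choroid plexus markers none passed by r over the 22 arrays, and the nearest was Htr5a with the 6 habenula markers (r = 0.60, adjusted permutation p = 0.0715). That relation passed with group means subtracted (r = 0.65, adjusted 0.0355), and Htr2a with striatum markers passed in the later run (r = 0.81, adjusted 0.0390).

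The genes most like each receptor gene were found by Pearson r over the 22 arrays after subtracting group means, among 13191 genes above background. For Htr2a they were Chrm5, a muscarinic acetylcholine receptor (0.87), Nkx2-4, a homeobox factor (0.86), and Nr5a1, the transcription factor that marks the ventromedial hypothalamus (0.86). For Htr2c they were Cdh23, a cadherin (0.89), Kcna1, a voltage-gated potassium channel (0.88), and Asah2, a ceramidase (0.87). For Htr1b they were Gpr83, a G protein-coupled receptor (0.81), Wfs1, a membrane protein of the endoplasmic reticulum (0.80), and Cfap65 (0.80).

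Htr7 was most like Nt5dc3 (0.77), Mchr1, the receptor of melanin-concentrating hormone (0.77), and Pde1b, a phosphodiesterase that breaks down cyclic nucleotides (0.76). Htr5a was most like Cldn19, a claudin (0.87), Tyro3, a receptor kinase (0.86), and Med8, a Mediator subunit (0.85), and Htr5b like Ext2 (0.84), Lhfpl2 (0.80) and Copb2 (0.79). For Htr1d they were Padi2 (0.87), Lrg1 (0.83) and Emid1 (0.81), and for Htr1a Senp6 (0.84), Zfp213 (0.81) and Mlec (0.80). Htr4 was most like Jak1 (0.78), Eri1 (0.76) and Sgsm2 (0.75), and Htr6 like Gldn (0.83), Rgl1 (0.83) and Hrh1, the histamine H1 receptor (0.81). These are the highest of 13191 correlations per receptor gene and are given as a description, with no test.

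The spread between mice of a group, as pooled SD, was 0.169 for the median receptor gene and 0.131 for the median of all genes (log2), and 7 of the 10 receptor genes lay above 0.131.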

How the data were processed

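Gene expression was measured on arrays in 22 hypothalami. The authors deposited log2 expression per probe set, made with RMA (background correction, normalization between arrays and summary of probes), per the submitters' processing notes. Which RMA version, genome build and annotation they used is not given in the sources used here. Of 35556 probe sets, the platform annotation gives 21218 to 1 gene, 1881 to several and 12457 to none. The probe set with the highest mean stood for each of 18820 genes, with no filter on low values.

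All arrays and genes entered a single limma 3.58.1 fit of 4 group means in R 4.3.3 (eBayes with no trend and 18 residual degrees of freedom, two-sided tests, Benjamini-Hochberg over all genes, threshold 0.05). Correlations over arrays used two-sided permutation tests with 100000 resamples (exact for 9 arrays) in SciPy 1.17.1, adjusted within families of 50, 45, 30 and 10 relations. The fit was tested on simulated data. The number of arrays limits the precision.

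All 10 receptor genes are named. Of the other-receptor, signalling and feeding lists, called genes (up to 4 by smallest p) or otherwise the gene with the smallest p are named. So are the 3 genes most like each receptor gene. Of the marker lists, the genes called against control are named. Members, lists and tests were chosen with earlier results of these data known. The alternatives changed variance moderation, array weights, scaling, filter, samples, run of sample numbers and marker covariates, and left out each array in turn. Chosen after seeing the data were the fits without the 4 arrays high in thalamus markers and with the oligodendrocyte covariate, the earlier run alone, and the correlations between receptor genes, with the hypothalamus, oligodendrocyte and neuron lists, and over 18 arrays.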

Additional observations from a re-analysis of the deposited data

Results flagged for a closer look

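In 4 of the 40 combinations of receptor gene and group, 1 array stood far from the others of its group by Dixon's criterion, which chance alone flags in about 1 of 20 groups. Htr1d was 5.163 in tumour day 10 replicate 2, where the next array had 4.918, and 5.417 in tumour day 14 replicate 1, where the next had 4.935. Htr5b, near background, was 4.585 in the same tumour day 14 replicate 1, against 4.13 in the next array. Htr7 was 6.92 in tumour day 14 replicate 2, against 6.748 in the next array, and that array is 1 of the 4 highest in thalamus markers.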

How the results depend on the processing

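Under all 39 other settings of the fit, 0 of 10 receptor genes were called in each of the 6 comparisons between groups, which includes each array left out in turn (0 to 0). The smallest adjusted p of any receptor gene under any setting was 0.172 for tumour day 10 against control (Htr7, without control replicate 4), 0.303 for day 14 (Htr2a, array weights) and 0.0974 for day 17 (Htr5a, array weights). Of 390 refitted differences per comparison with control, 14, 23 and 9 changed sign on days 10, 14 and 17, and the largest main difference among those was 0.10, 0.12 and 0.10 in size. Over all genes, the 20, 41 and 211 genes called on days 10, 14 and 17 became 0 to 25, 2 to 115 and 37 to 382 with each array left out, and 0 to 76, 0 to 140 and 0 to 616 under other settings. All 10 receptor genes stayed above the 90th percentile of the nasal probe sets and 9 above the 99th.

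With the replicate number as a block, 0 receptor genes were called in every comparison (smallest adjusted p 0.219, 0.530 and 0.178 on days 10, 14 and 17), and 24, 140 and 616 of all genes. The labels do not say that numbers pair mice. Of 28 pairs of arrays with the same number, 15 had deviations from group means that correlated above 0.1 (median 0.12, range -0.19 to 0.35). Of 151 pairs with other numbers, 28 did (median -0.01, range -0.28 to 0.50). Of the 22 arrays, 5 correlated best with their own number.

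Correlation calls moved more. Against 5 regional lists 1 relation, that of Htr7 and thalamus, passed over all arrays, but not without the 4 arrays highest in thalamus markers. The count was 0 by Spearman rho, 2 with group means removed (Htr7 and thalamus, Htr5a and habenula), 0 without the 2 farthest arrays, 0 in the earlier run of sample numbers and 1 in the later run (Htr2a and striatum). Against 3 further lists 3 passed, with 4 by rho, 5 after removing group means, 2 without the 2 farthest arrays, 0 in the earlier run and 2 in the later run. Among pairs of receptor genes 3 passed, with 3 by rho, 4 after removing group means, 0 without the 2 farthest arrays, 0 in the earlier run and 1 in the later run. The cause was not tested, and each run also holds fewer arrays than the whole series. A second probe set per receptor gene could not be tried, since each has 1.

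The main limits are the 4 controls, of which 2 are among the 4 arrays highest in thalamus markers, the lack of controls on days 10 and 17, and a background measure that Htr5b exceeds by only 0.23.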
